A study of Mus musculus with 24 samples.

Results

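The genes described here encode the signalling chain of the interleukin-7 (IL-7) receptor and the feedback inhibitors of that chain. They were chosen by name: Il7r, Il2rg, Jak1, Jak3, Stat5a, Stat5b, Cish, Socs1, Socs2 and Socs3, which are 10 of the 24421 genes in the deposited count tables. The question was whether loss of the phospholipases PLCgamma1 and PLCgamma2, enzymes that split a membrane lipid into second messengers, went with a change in the transcripts of the receptor, its kinases, its transcription factor or their inhibitors in lymphoid progenitors.

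RNA was sequenced from 2 sorted mouse bone marrow populations, labelled CLP (common lymphoid progenitors, sorted as Lin-IL-7R+) and B cell progenitor (sorted as B220+IgM-IL-7R+, called B here). Each population came from 4 genotypes: WT (PLCgamma1+/+PLCgamma2+/+), G1KO (PLCgamma1-/-PLCgamma2+/+), G2KO (PLCgamma1+/+PLCgamma2-/-) and DKO (PLCgamma1-/-PLCgamma2-/-). There were 3 mice per genotype, and 1 library of each population per mouse, so 24 libraries came from 12 mice. Per the study's methods, all donors, WT included, carried an MxCre transgene and a Rosa-YFP reporter on a mixed 129xC57BL/6 background, were adults of both sexes, and had received poly(I-C). The Plcg1 floxed allele was deleted by Cre driven from the interferon-inducible Mx promoter, which is not specific to one cell type, whereas the Plcg2 null allele was carried from the germline. Donor marrow was transplanted into lethally irradiated wild-type CD45.1+ recipients, from which the progenitors were sorted after reconstitution. How many donors supplied each genotype is not given in the sources used here, so the spread between the 3 mice may be that between recipients of 1 donor.

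IL-7 binds the IL-7 receptor alpha chain (Il7r) paired with the common gamma chain (Il2rg). The kinases JAK1 and JAK3, bound to these chains, phosphorylate STAT5A and STAT5B, which enter the nucleus and switch on genes that include their own inhibitors of the CIS and SOCS family (Cish, Socs1, Socs2, Socs3). In mice this pathway is needed for the survival and growth of early B cell progenitors. It works mainly through phosphorylation, which RNA-seq does not measure.

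Libraries differed in several ways that touch the results. CLP libraries held 4232345 to 33219995 reads assigned to genes, and B libraries 1479582 to 25057223. A share of 17.9% to 45.2% of CLP reads and 59.9% to 87.3% of B reads fell on no gene, so the populations do not overlap in this measure. All 8 B lineage markers were detected in both populations, and their summed levels overlapped, from 817 to 6136 CPM (the count scaled to a common library size) in CLP and from 1817 to 6536 CPM in B. The 6 lymphoid progenitor markers overlapped too, so by these markers the labelled populations are not cleanly apart. Myeloid markers such as Mpo, Lyz2 and Elane, made by cells that neither gate selects, summed to 1421 to 8871 CPM over the 24 libraries, and none of the 3 named was at 0. Plcg2 was at 195 to 281 CPM in the WT and G1KO CLPs and at 98.4 to 137 CPM in the G2KO and DKO CLPs, and its B levels were 182 to 247 CPM against 72.0 to 110.6 CPM. Plcg1 levels did not separate the genotypes. CLPs held 70.8 to 140.0 CPM in G1KO, 87.4 to 185 CPM in DKO and 101 to 112 CPM in WT. B libraries held 60.3 to 97.7 CPM in G1KO, 56.0 to 185 CPM in DKO and 81.1 to 111 CPM in WT. Reads over the whole gene do not test a floxed part. The X inactivation transcript Xist was at 1293 to 2312 CPM in the G1KO and DKO libraries and at 23.6 to 742 CPM in the others. The Y-linked gene Ddx3y was at 1.44 to 19.1 CPM in the G1KO and DKO libraries and at 98.1 to 191 CPM in the others. Plcg1 deletion and this sex-linked difference cannot be told apart here, and Il2rg lies on chromosome X.

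In the GENCODE annotation of mm10, Il7r spans chr15:9505788-9530176, Il2rg chrX:101264378-101268255, Jak1 chr4:101152367-101265282 and Jak3 chr8:71676296-71690575. Stat5a (chr11:100859351-100885169), Stat5b (chr11:100780731-100850724) and Socs3 (chr11:117966079-117970047) share a chromosome, and Cish (chr9:107296026-107302784), Socs1 (chr16:10782240-10785536) and Socs2 (chr10:95385362-95417180) do not. All 10 genes had reads in every library. Levels between genes are given as normalized CPM per kilobase of exon, with CPM scaled by the trimmed mean of M values (TMM). The receptor chains and JAK1 stood highest in both populations: the median over 12 libraries was 85.5 in CLP and 94.5 in B for Il7r, 62.1 and 43.3 for Il2rg, and 58.1 and 56.4 for Jak1. Stat5b, Jak3 and Stat5a formed the middle of the CLP order, with medians of 32.3, 25.8 and 21.004, and Stat5b was at 27.3, Jak3 at 17.2 and Stat5a at 17.4 in B. The inhibitors spread most between libraries. Socs3 had a CLP median of 20.9 and a B median of 5.95, Socs2 of 13.3 and 18.9, Socs1 of 8.20 and 5.94, and Cish stood lowest at 5.19 and 2.92. Of the 18 pairs of neighbours in the 2 orders, 16 had overlapping ranges; the exceptions were the steps from Jak1 to Stat5b in CLP and from Il2rg to Stat5b in B. Il7r transcripts were measured in cells gated on IL-7R protein, so their level describes cells already chosen for the receptor.

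**Figure D1:**
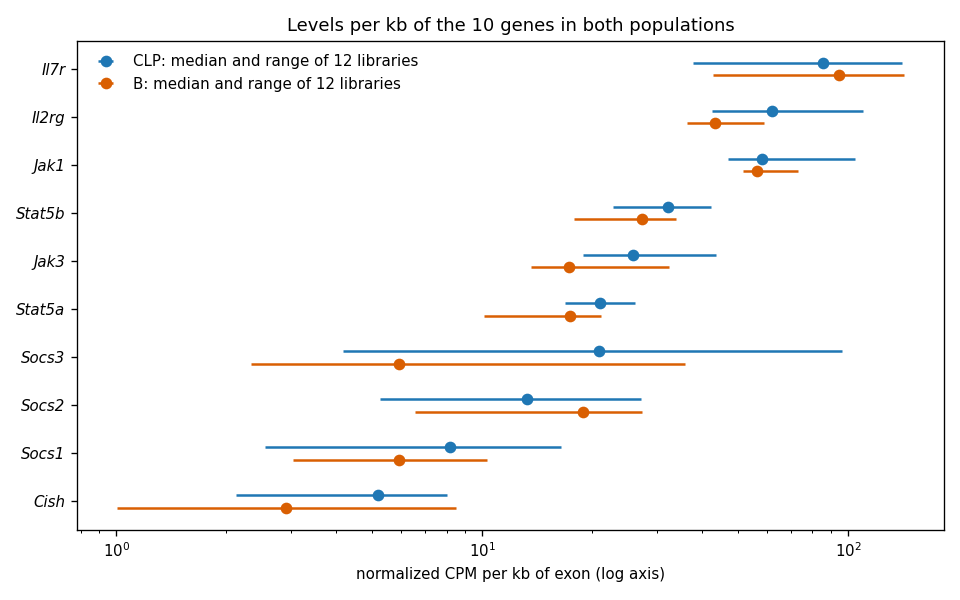
Normalized CPM per kilobase of exon (log axis) of the 10 genes, with points at the median and lines over the full range of the 12 libraries of each population. Il7r, Il2rg and Jak1 stand above the other genes, and Socs3 has the widest range, 4.18 to 96.1 in CLP.

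The libraries differed far more for some of these genes than for others. The highest CLP library exceeded the lowest 1.56-fold for Stat5a, 1.86-fold for Stat5b, 2.23-fold for Jak1, 3.72-fold for Il7r, 6.43-fold for Socs1 and 22.99-fold for Socs3. In B the corresponding ranges were 1.42-fold for Jak1, 1.62-fold for Il2rg, 1.90-fold for Stat5b, 2.08-fold for Stat5a, 3.32-fold for Il7r, 8.46-fold for Cish and 15.3-fold for Socs3. Stat5a and Stat5b had the narrowest ranges in CLP and Jak1 and Il2rg in B, and Socs3 had the widest in both.

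**Figure D2:**
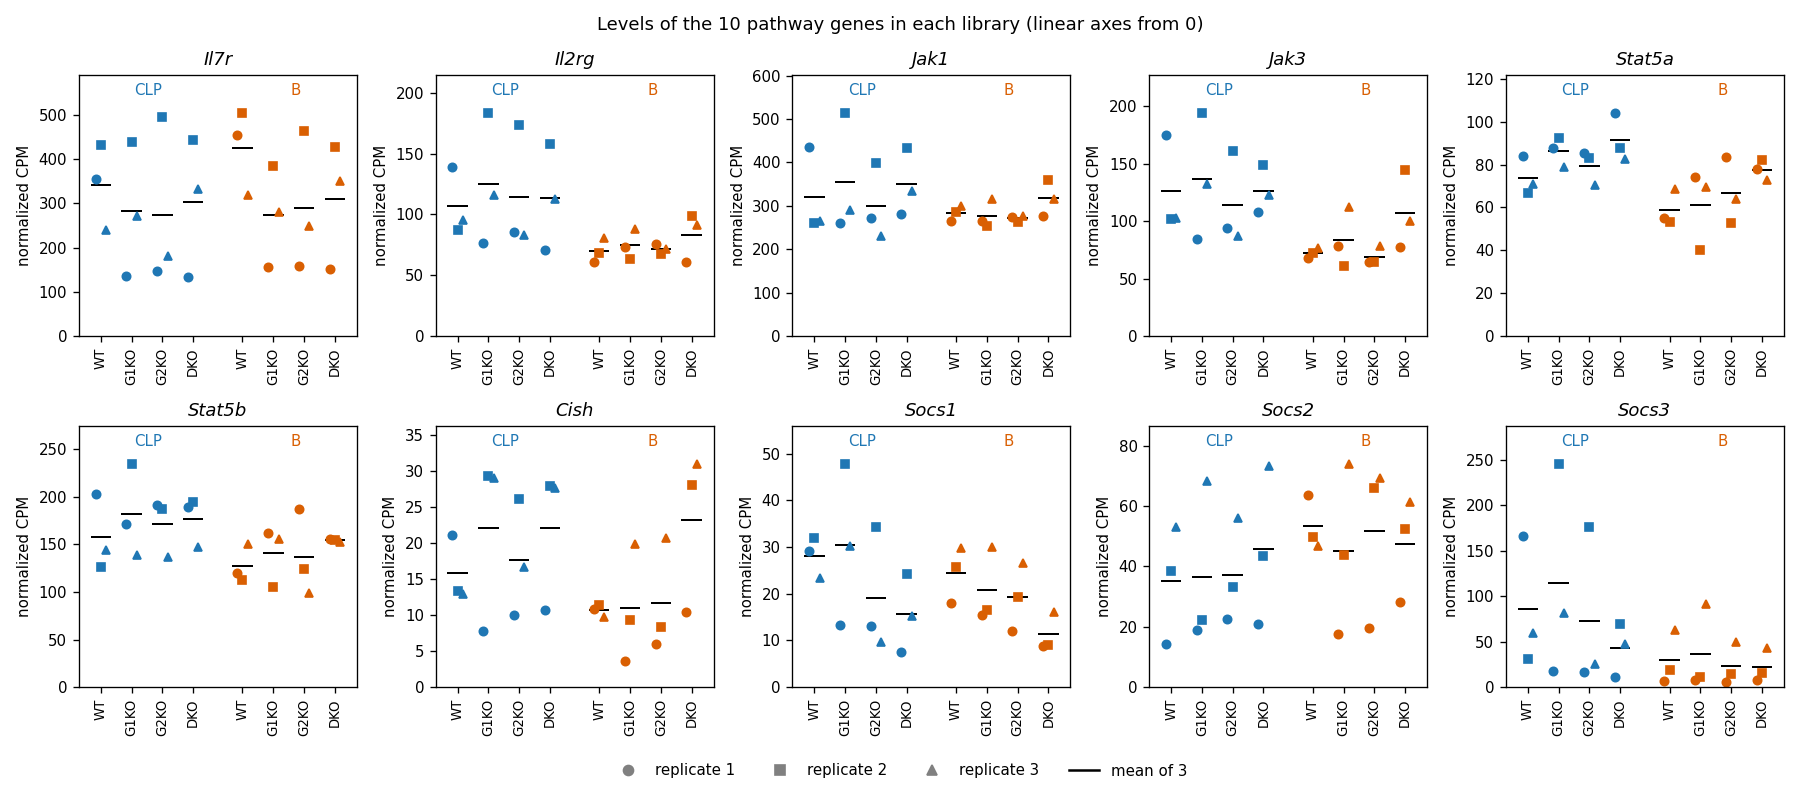
Normalized CPM (linear axes from 0) of each of the 10 genes in the 24 libraries, by genotype and population; marker shapes give the replicate number of the labels and bars the mean of 3. Il7r is lowest in replicate 1 of each knockout group (133 to 159 CPM), and Socs1 in the B DKO libraries (8.84 to 16.01 CPM) lies below the B WT libraries (17.98 to 29.8 CPM).

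No one of the 10 genes was called as changed in any of the 19 comparisons made, within a population, between populations or between the effects in both. A call required, by edgeR's quasi-likelihood test, a log2 fold change of at least 0.5 in size and a p of 0.05 or less once adjusted over all genes tested (Benjamini-Hochberg). Of the 190 pairs of gene and comparison, the unadjusted p was 0.05 or less for 9 with edgeR and for 13 with DESeq2, which called none either. Of all genes tested, 0.0921% (14 of 15209) were called between DKO and WT CLPs and 0.893% (134 of 15001; 0.22% higher and 0.673% lower) between DKO and WT B cells, against 0 of the 10 in each. The percentage called was 0.00658 for G1KO and 0 for G2KO against WT in CLPs, and 0.06 and 0.0467 in B. Between DKO and the single knockouts it was 0.0263 (G1KO) and 0.0526 (G2KO) in CLPs and 0.213 and 0.153 in B. The 9 pairs at an unadjusted p of 0.05 or less fell in 6 comparisons: DKO against WT (2 members), G1KO (1) and G2KO (1) in B, where 12.3%, 16.6% and 11% of all genes did so, and B against CLP in WT (1), G1KO (3) and G2KO (1), with 16.1%, 26.5% and 16.2%. The CLP comparisons held 0, beside 7.52% of all genes for DKO, 2.85% for G1KO and 3.92% for G2KO against WT, and 4.29% and 7.54% for DKO against G1KO and G2KO. G1KO and G2KO against WT in B (9.93% and 2.84%) and DKO B against CLP (14.3%) held 0 as well. A miss does not show that levels were alike, so the intervals are given below.

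Il7r, the receptor's alpha chain, was measured at 354, 432 and 239 CPM in the WT CLPs, at 137, 438 and 272 CPM in G1KO, at 146, 496 and 181 CPM in G2KO and at 133, 445 and 334 CPM in DKO. The B libraries gave 454, 505 and 318 CPM in WT, 156, 385 and 282 CPM in G1KO, 159, 463 and 249 CPM in G2KO and 152, 427 and 350.4 CPM in DKO. In each of the 6 knockout groups, replicate 1 was the lowest and replicate 2 the highest, and every knockout group overlapped WT. The DKO difference from WT in log2 fold change was -0.19 in CLP (95% interval -1.39 to 1.01) and -0.46 in B (-1.42 to 0.50), with adjusted p = 0.951 and 0.681 in edgeR. The intervals thus allow both a more than 2-fold loss and no loss.

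The 6 knockout libraries numbered 1, singled out after their values were seen, stood apart from the other 18 in Il7r (133 to 159 against 181 to 505 CPM), and also in lymphoid progenitor, myeloid and macrophage markers. Their 6 lymphoid progenitor markers, Il7r among them, summed to 1089 to 1165 CPM against 1443 to 4895 CPM. Their 7 myeloid markers summed to 6995 to 8871 CPM against 1421 to 6473 CPM, and their macrophage markers to 261 to 352 CPM against 61.0 to 248 CPM. The same libraries held 3.66 to 10.7 CPM of Cish, 7.43 to 15.4 CPM of Socs1 and 17.7 to 28.2 CPM of Socs2, at the low end of the other 18 (8.30 to 31.0, 9.09 to 47.8 and 14.2 to 74.0 CPM), but 74.4 to 104 CPM of Stat5a, at the high end (40.3 to 92.6 CPM). Without these libraries the log2 fold change of Il7r between DKO and WT was 0.17 in CLP and -0.17 in B. They held the lowest Il7r and came from knockouts only, so leaving them out had to raise these values, which decide nothing about Il7r. With the mean myeloid marker level in the fit it was 0.68 in CLP and 0.07 in B, and no call arose in either setting. In bulk samples, fewer cells of a type and less RNA per cell cannot be told apart.

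**Figure D3:**
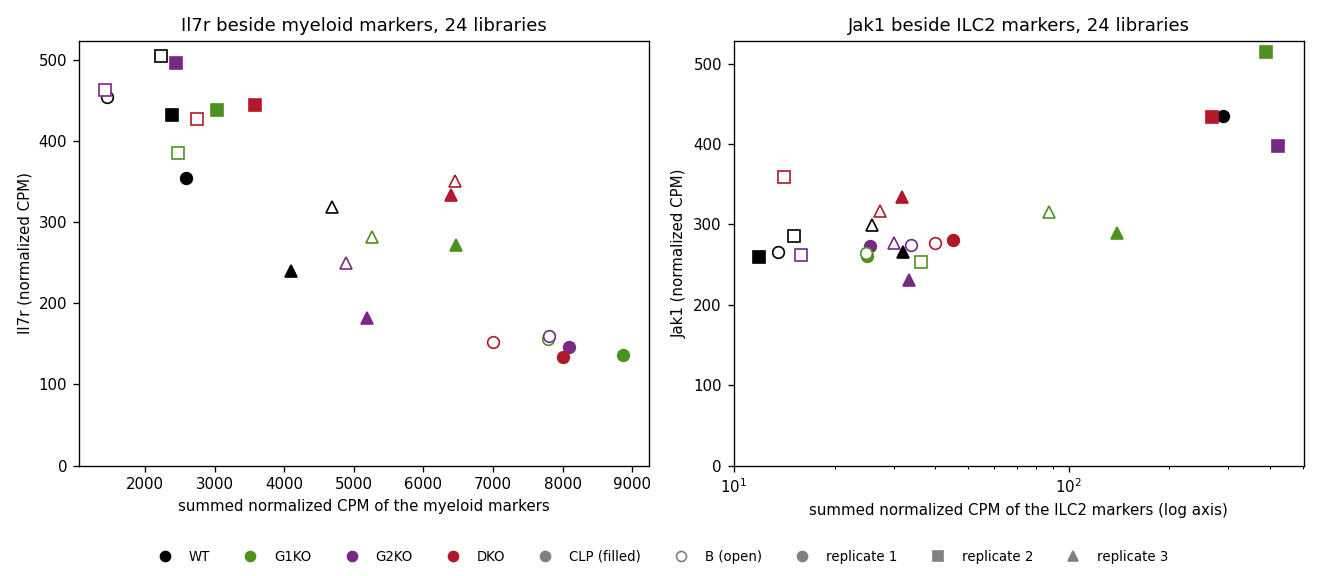
Left, Il7r (normalized CPM) against the summed CPM of 7 myeloid markers; right, Jak1 against the summed CPM of 4 markers of group 2 innate lymphoid cells (ILC2, log axis), 24 libraries each. The 6 knockout libraries numbered 1 lie at the right of the first panel with Il7r at 133 to 159 CPM, and 4 CLP libraries lie at the upper right of the second with Jak1 at 398 to 514 CPM.

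The promoters were read for the sequence that STAT dimers are known to bind, TTCNNNGAA, and for its form with 1 more base in the spacer. Both are palindromic, so 1 search covers both strands. RefSeq promoter windows (GRCm38.p6, 250 bases upstream of a start) were found for 9 of the 10 genes, with 11 windows among them; Socs2 had none. TTCNNNGAA was in the windows of Il7r and Socs3, and in 7.02% of all 32851 windows, and the form with the longer spacer was in no member's window and in 5.85% of all. The match in the Il7r window began 142 bases upstream of the RefSeq start and that of Socs3 154 bases upstream. Both windows lie inside the GENCODE spans given above, so the annotations place the starts of these genes differently. By GENCODE these matches are within the genes and not upstream of them. The windows of these genes are shown because they hold the motif; the gene's strand is printed 5′ to 3′, with the motif in capitals.
Il7r, chr15:9529877-9530126, minus strand: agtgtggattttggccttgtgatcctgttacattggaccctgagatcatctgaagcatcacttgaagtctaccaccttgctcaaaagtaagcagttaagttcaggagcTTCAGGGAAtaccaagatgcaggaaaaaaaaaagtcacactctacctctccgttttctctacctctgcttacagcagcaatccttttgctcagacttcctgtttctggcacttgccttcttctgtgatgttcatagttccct
Socs3, chr11:117969367-117969616, minus strand: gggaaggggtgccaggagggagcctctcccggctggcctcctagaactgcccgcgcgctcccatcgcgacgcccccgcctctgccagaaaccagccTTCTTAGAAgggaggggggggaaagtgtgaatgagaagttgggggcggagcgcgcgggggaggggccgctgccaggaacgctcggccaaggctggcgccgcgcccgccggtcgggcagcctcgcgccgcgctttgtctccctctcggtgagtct
A match describes these letters only. Binding of STAT5 was not measured. Across libraries, Il7r and Socs3 had a Pearson's r of 0.82 in CLP and 0.24 in B, 12 libraries each, as a description only.

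Il2rg, the chain shared by the receptors of several cytokines, was at 107 ± 28.0 CPM (SD, n = 3) in WT CLPs and at 114 ± 43.6 CPM in DKO CLPs. In B it was at 69.8 ± 10.004 CPM in WT and at 83.5 ± 19.9 CPM in DKO. Jak1, the kinase bound to the alpha chain, was at 320.1 ± 99.0 CPM in WT and 349 ± 77.5 CPM in DKO CLPs, and at 283 ± 16.7 and 318 ± 41.1 CPM in B. Jak1 gave the narrowest interval of any member in that comparison. Its log2 fold change between DKO and WT B cells was 0.17 (-0.12 to 0.45), and that of Il2rg was 0.26 (-0.13 to 0.66).

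Jak3, the kinase bound to the common gamma chain, was at 68.1, 72.4 and 76.7 CPM in the WT B libraries and at 77.3, 145 and 99.9 CPM in DKO. The DKO libraries lay above all WT ones, the lowest by less than 1 CPM. The log2 fold change was 0.57 (0.06 to 1.09), with an unadjusted p of 0.0326 and adjusted p = 0.351 in edgeR, so it was not called. In CLP the difference was -0.02 (-0.74 to 0.70). The exons of Jak3 share 404 bases, 9.05% of their length, with Insl3 on the same strand, where reads cannot be split.

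In CLPs, Il2rg, Jak1 and Jak3 were all highest in the same 4 libraries, WT replicate 1 and replicate 2 of G1KO, G2KO and DKO, again singled out after their values were seen. Il2rg was at 139 to 184 CPM there against 70.9 to 116 CPM in the other 8 CLP libraries, Jak1 at 398 to 514 against 231 to 334 CPM, and Jak3 at 149 to 194 against 84.1 to 132 CPM. The 4 ILC2 markers (Gata3, Il1rl1, Rora, Areg) summed to 267 to 421 CPM in these libraries against 11.9 to 139 CPM, and to 13.6 to 87.1 CPM in B. Areg was at 0 to 5.08 CPM over the CLP libraries. The 6 lymphoid progenitor markers separated the same libraries, at 2768 to 3425 CPM against 1089 to 2122 CPM. The part of either set of cells in the 3 genes was not tested; with the mean ILC2 marker level in the fit, the log2 fold change of Il2rg between DKO and WT CLPs was -0.03, against 0.06 without it. Each genotype held 1 of the 4 libraries.

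Stat5a and Stat5b, the transcription factors of the chain, were called in no genotype comparison. Stat5a was at 83.8, 66.9 and 70.9 CPM in WT CLPs and at 104, 87.7 and 82.7 CPM in DKO CLPs, which overlap narrowly. The log2 fold change was 0.30 (SE 0.14, unadjusted p 0.0503, adjusted p = 0.663 in edgeR). In B, Stat5a was at 55.3, 53.4 and 68.4 CPM in WT and at 77.9, 82.3 and 72.6 CPM in DKO, which do not overlap, with a log2 fold change of 0.39 (-0.09 to 0.87). Stat5b was at 120.1, 113 and 150.1 CPM in WT B cells and at 155, 154 and 152 CPM in DKO, again without overlap, with a log2 fold change of 0.27 (-0.21 to 0.74). Groups of 3 did not overlap for 4 of the 10 members in this comparison (Jak3, Stat5a, Stat5b and Socs1) and for 19.2% of all genes tested; in CLPs this held for 0 of the 10 and 13.6% of all genes. Markers of other cell types also separated DKO from WT B cells. The 5 plasmacytoid dendritic cell markers, all detected, summed to 681 to 732 CPM in DKO against 433 to 499 CPM in WT. They summed to 414 to 564 CPM in G1KO and 417 to 536 CPM in G2KO. The 5 NK cell markers, all detected, summed to 45.2 to 69.7 CPM in DKO against 19.1 to 30.9 CPM in WT. G1KO, at 35.7 to 55.3 CPM, also lay above WT in these, and G2KO was at 18.4 to 56.6 CPM. The dendritic cell markers are Siglech, Ccr9, Bst2, Tcf4 and Klk1, and Tcf4 weighs most in their sum. Over the B libraries the median was 309 CPM for Tcf4, 85.0 for Bst2, 68.2 for Siglech, 22.4 for Ccr9 and 2.91 for Klk1. Which of them carried the difference was not tested. The part of either marker set in the levels of these 4 genes was not tested. Stat5a and Stat5b lie side by side on chromosome 11 and share 608 stretches of 50 bases, 8.21% of those in Stat5a and 11% of those in Stat5b, so part of their reads could have gone to either. Stat5a also overlaps Stat3 on the opposite strand over 1.81% of its exon bases, and Cish an antisense gene over 13.1%; whether strand was used in counting is not given in the sources used here. Il2rg overlaps the protein-coding gene Gm20489 on the same strand over 43.6% of its exon bases, and Gm20489 has no row in the count tables used here.

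Socs1, an inhibitor that blocks JAK activity, had the lowest p of the 10 between DKO and WT B cells. It was at 17.98, 25.6 and 29.8 CPM in WT, at 15.4, 16.6 and 30.1 CPM in G1KO, at 11.9, 19.2 and 26.7 CPM in G2KO and at 8.84, 9.09 and 16.01 CPM in DKO. All 3 DKO libraries lay below all 3 WT libraries, while both single knockouts overlapped WT. The log2 fold change was -1.10 (SE 0.35, 95% interval -1.87 to -0.34), a fold of 0.465, with an unadjusted p of 0.00844 and adjusted p = 0.215 in edgeR. An unadjusted p of at most 0.05 was reached by 12.3% of all genes in this comparison and by 2 of the 10 here, Socs1 and Jak3. Against G1KO the difference was -0.88 (adjusted p = 0.239). In CLPs Socs1 was at 29.2, 31.9 and 23.4 CPM in WT and at 7.43, 24.3 and 15.2 CPM in DKO, with a log2 fold change of -0.87 (-2.08 to 0.34). The test of whether the DKO effect differed between B and CLP gave -0.25 (-1.70 to 1.19), so no difference between the populations was detectable.

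Cish, an inhibitor that occupies STAT5 docking sites on receptors, lay the other way. It was at 10.8, 11.4 and 9.72 CPM in WT B cells and at 10.5, 28.0 and 31.0 CPM in DKO, so 2 of 3 DKO libraries were above all WT ones. The log2 fold change was 1.14 (-0.05 to 2.34, adjusted p = 0.430 in edgeR). Both single knockouts were near WT on average, at 10.9 ± 8.19 CPM in G1KO and 11.6 ± 7.89 CPM in G2KO, but the highest library of each reached 19.8 and 20.7 CPM. In CLPs Cish was at 15.8 ± 4.58 CPM in WT and 22.1 ± 9.85 CPM in DKO, a log2 fold change of 0.46 (-0.69 to 1.61).

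Whether Socs1 and Cish counted as changed in DKO B cells rested on the model. DESeq2 with a normal prior, fitted to the 6 libraries alone and added after the main result was seen, called both, with log2 fold changes of -0.92 (adjusted p = 0.0184) and 0.90 (adjusted p = 0.0365). It called 655 genes in that comparison, against 134 with edgeR and 444 with DESeq2 without the prior on all 12 B libraries, where Socs1 reached an adjusted p of 0.0669 and Cish of 0.311. Over the 17 alternatives tried, the log2 fold change of Socs1 ran from -1.44 to -0.91 and its adjusted p from 0.00659 to 0.545; that of Cish ran from 0.86 to 1.48.

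Socs2 and Socs3, inhibitors of cytokine and growth factor signals, showed no difference by genotype that their spread allowed to be seen. Socs2 was at 53.3 ± 9.002 CPM in WT and 47.3 ± 17.1 CPM in DKO B cells, and at 35.2 ± 19.6 and 45.8 ± 26.3 CPM in CLPs. Socs3 was at 7.17, 18.7 and 62.9 CPM in WT B cells, at 8.11, 10.6 and 91.4 CPM in G1KO, at 5.97, 14.5 and 49.98 CPM in G2KO and at 7.53, 15.9 and 42.7 CPM in DKO. Replicate 1 was lowest and replicate 3 highest in all 4 genotypes, so the replicate number separated these libraries and the genotype did not. In CLPs Socs3 was at 166, 30.9 and 59.3 CPM in WT and at 10.7, 69.9 and 47.3 CPM in DKO, and the log2 fold change of -1.04 had an interval of -3.38 to 1.30. Without WT replicate 1 it was -0.13.

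**Figure D4:**
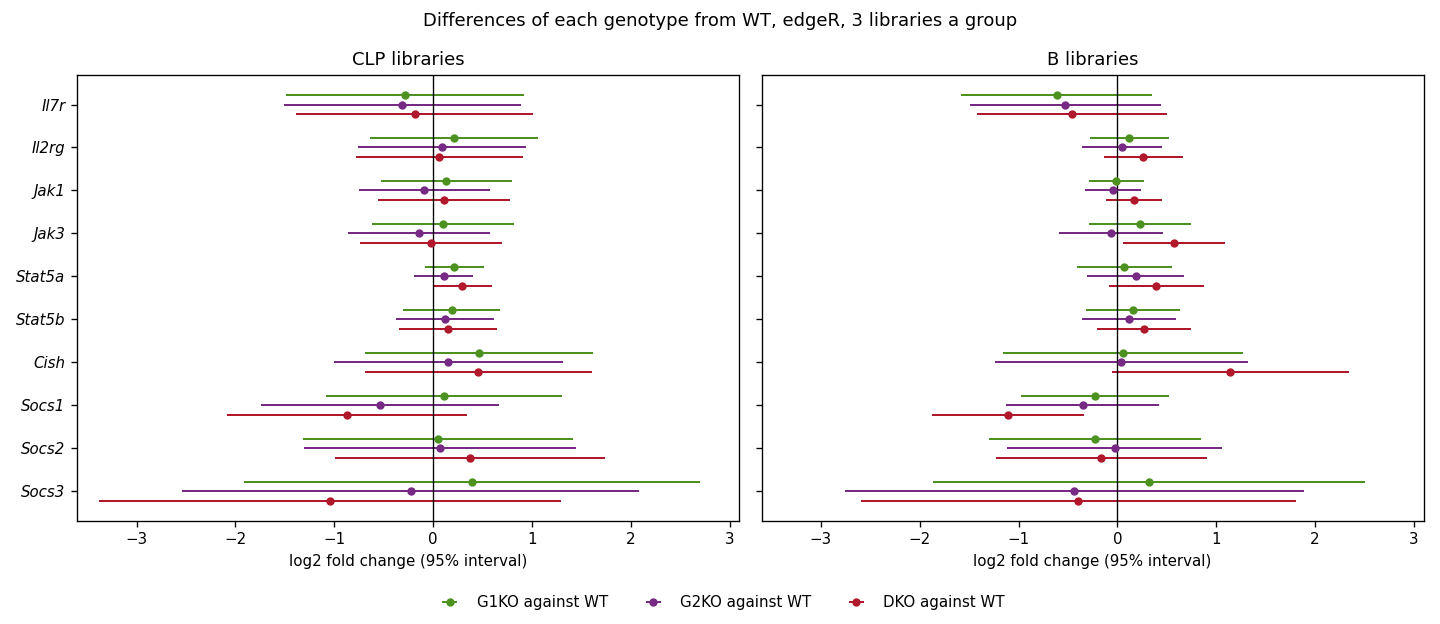
Log2 fold changes of G1KO, G2KO and DKO from WT with 95% intervals from edgeR, in CLP (left) and B (right), 3 libraries a group. All intervals but those of Jak3 and Socs1 in B DKO reach 0; Socs3 has the widest, Jak1 and Stat5a some of the narrowest.

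The double knockout was also set against the sum of both single knockouts on the log2 scale. This asks whether losing both enzymes did more or less than the single effects added together. None of the 10 departed from that sum in edgeR, with 0 at an unadjusted p of at most 0.05 in either population. Of all genes, edgeR called 0.0197% in CLP and 0.0267% in B, and 4.77% and 15.3% were at an unadjusted p of 0.05 or less. DESeq2 called 0 of the 10 as well, but 29 genes in CLP and 642 in B over all genes. The largest departures were 1.05 (-0.71 to 2.81) for Cish in B and -1.21 (-4.49 to 2.07) for Socs3 in CLP.

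Between populations, 8 of the 10 genes were lower in WT B than in WT CLP libraries and none was called, against 3.5% of all genes. The tests in this paragraph took the CLP and B library of a mouse as independent. With mouse as a block, 0 of the 10 were called in each genotype and in the interaction tests. Jak3 was at 72.4 ± 4.30 CPM in WT B and 127 ± 42.3 CPM in WT CLP libraries, which did not overlap. Its log2 fold change was -0.81 (unadjusted p 0.0154, adjusted p = 0.177 in edgeR) in WT, -0.71 in G1KO, -0.74 in G2KO and -0.23 in DKO. Il2rg differed by -0.62, -0.74, -0.68 and -0.44 in that order of genotypes, and Stat5a by -0.32, -0.49, -0.26 and -0.24. Groups did not overlap in WT for 3 of the 10, Il2rg, Jak3 and Cish, and for 20.9% of all genes. The background called was 3.78% in G1KO, 3.21% in G2KO and 3.24% in DKO. The share of reads on no gene moved with population in every genotype. With it as a covariate the WT difference of Jak3 was 0.001. The populations did not overlap in this share, so that fit cannot separate it from population, and no conclusion is drawn from the value. None of the 10 effects of a genotype differed between the populations by the interaction test in edgeR or DESeq2, with 0 at an unadjusted p of at most 0.05 for DKO, G1KO and G2KO; 0% of all genes were called there, and 1.37%, 3.48% and 0.901% were at that unadjusted p.

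**Figure D5:**
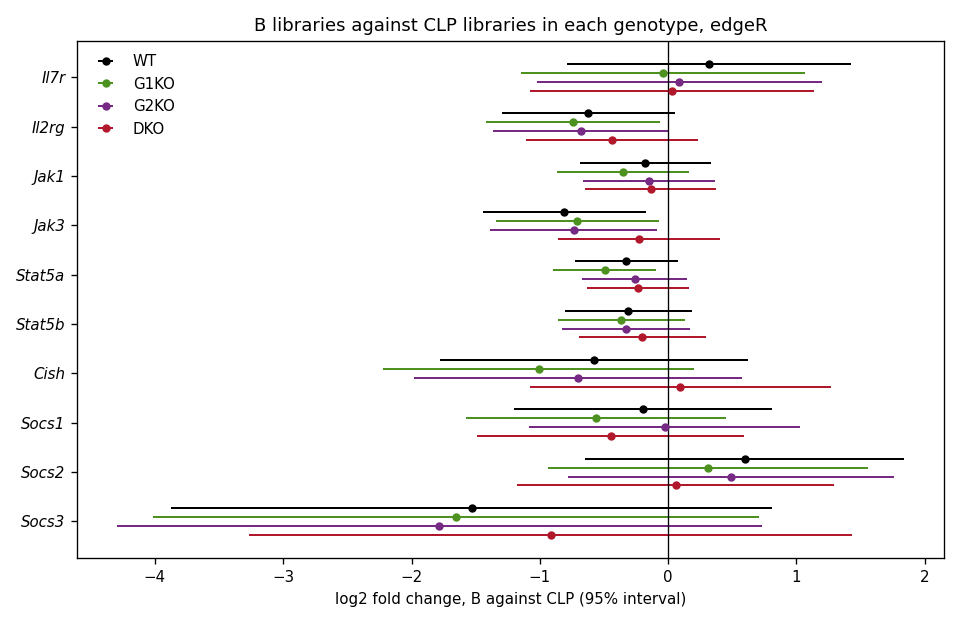
Log2 fold changes of B against CLP libraries with 95% intervals from edgeR, by genotype, 3 libraries a group. Most of the 10 genes lie below 0 in each genotype, among them Il2rg, Jak3 and Stat5a (Jak3 at -0.81 in WT and -0.23 in DKO). Most intervals reach 0.

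Other genes of the pathway were counted from 5 lists. Of all genes tested, 0.673% were called lower in DKO than in WT B cells. Of 7 further receptor chains that use the common gamma chain or bind TSLP, 1 was called lower there and 6 were not called. That gene was Il2ra, the alpha chain of the IL-2 receptor and a marker of pre-B cells, at 48.4, 73.1 and 74.0 CPM in WT and at 2.96, 8.47 and 8.51 CPM in DKO, from lowest to highest, without overlap. Its log2 fold change was -3.40 (SE 0.51, adjusted p = 0.00818 in edgeR), and it was called in all 17 alternatives. In CLPs it was at 44.6 ± 29.5 CPM in WT and 8.42 ± 2.76 CPM in DKO, with a log2 fold change of -2.41 (adjusted p = 0.0832 in edgeR, not called; 5.85e-06 in DESeq2, called). The 3 pre-B markers in the tables, Il2ra among them, summed to 697 to 831 CPM in WT B cells and to 127 to 178 CPM in DKO B cells; Cd2 and Bach2 were called lower as well (log2 fold changes -1.95 and -2.21). Il2ra was also lower than in G1KO B cells (-2.89, adjusted p = 0.0465), a call that was lost when any 1 of the 6 libraries was left out.

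Of 7 other JAK and STAT genes, 1 was called higher in DKO than in WT B cells, beside 0.22% of all genes. That gene was Stat4, which transmits signals of IL-12, at 34.3 ± 0.546 CPM in WT and 77.7 ± 25.3 CPM in DKO. The plasmacytoid dendritic cell and NK cell markers given above separated the same groups, and their part in the level of Stat4 was not tested. The log2 fold change of Stat4 was 1.18 (SE 0.24, adjusted p = 0.0386 in edgeR), and the call was lost without any 1 library but DKO replicate 1, with adjusted p up to 0.176. In edgeR none of 16 other SOCS genes and negative regulators was called in DKO against WT B cells. Nor was any of 10 other genes known as STAT5 targets or of the 4 cytokine genes tested of 7. An unadjusted p of at most 0.05 was reached by 2, 3 and 1 of them in that order, beside 12.3% of all genes. DESeq2 called 1 of the STAT5 targets, Pim2 (adjusted p = 0.0125), and 0 of the SOCS and cytokine lists. Among the STAT5 targets these were Bcl2l1, a survival factor (-1.14, adjusted p = 0.214), the kinase gene Pim2 (-0.80, adjusted p = 0.100) and the cyclin gene Ccnd2 (-0.67, adjusted p = 0.297). The median log2 fold change of those 10 was -0.37, beside -0.02 over all genes, and some of the 10 lay above WT in DESeq2, uncalled. Pim2 (-0.72) and Ccnd2 (-0.87) were also below WT on average in DKO CLPs, uncalled.

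Genes whose levels followed each member were sought over the 24 libraries, with the mean of each population taken off, among 14163 genes. The values are a description, since the libraries share depth, cell makeup and mouse. Socs3 ran closest with Junb (Pearson's r 0.96), Egr1 (0.95) and Nfkbiz (0.94), and Socs1 with Fosb (0.90), Nfkbia (0.86) and Gsn (0.85). Jak1 ran with Rasal3 (0.97), Il2rg with Tcf7 (0.90), Il7r with Abhd8 (0.92) and Cish with Tnfsf10 (0.92). The closest genes to Jak3, Stat5a, Stat5b and Socs2 were Bcl9l (0.93), Pacs2 (0.94), Tbc1d9b (0.93) and Erc1 (0.92). Within the 10 genes, Il2rg and Jak1 (0.90), Jak1 and Jak3 (0.88), Il2rg and Jak3 (0.86), Socs1 and Socs3 (0.80), Il2rg and Socs3 (0.78) and Stat5a and Stat5b (0.78) were the closest pairs, and Stat5b and Socs2 ran most against each other (-0.64). Il7r followed Il2rg in CLPs (0.84) but not in B (0.07).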

How the data were processed

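The deposited files hold raw read counts per gene, 1 file per library. Per the labels and the study's methods, the authors purified poly(A) RNA, prepared libraries with a NEBNext Ultra RNA kit and aligned reads to mm10 with STAR 2.5.0a; the counting program and its strand setting are not given in the sources used here. Rows for reads on no gene or on more than 1 gene were left out of library sizes and tests (0.110% to 1.44% were ambiguous). Groups came from the labels. Counts were TMM-scaled and tested with edgeR 4.0.16 (R 4.3.3; low counts filtered by group) over 15209 CLP genes, 15001 B genes or 17212 genes in all 24 libraries, with intervals at 95%; DESeq2 1.42.0 was an alternative, and figures were drawn with matplotlib 3.10.9. No library pair agreed within sampling noise (chi-square per degree of freedom at least 9.62). The statistical scripts were tested on simulated data. All members were named, with list genes called in a comparison with WT or between populations, the 3 genes closest to each member (fewer printed), Cd2 and Bach2 as called markers and the 3 STAT5 targets at an unadjusted p of at most 0.05, the last 5 after their values were seen. The members and lists were chosen with earlier results of these data known. Exon lengths, overlaps and positions were taken from GENCODE vM21 (the build of mm10). Replicate numbers of the labels paired the libraries of CLP G1KO, G2KO and DKO (correlation of deviations at least 0.259) and of B G2KO and DKO (at least 0.207). Mouse numbers of the labels name the CLP and B library of a mouse. Deviations of libraries of the same mouse correlated by at least 0.214 in DKO, but by as little as -0.316 in G1KO. P-values measure the spread between these mice. Those within a population take libraries of the same replicate number as independent, and those across populations the libraries of a mouse. With the replicate block, edgeR called 17 genes between DKO and G1KO CLPs, against 4 without it. Between DKO and G2KO it called 26 against 8 in CLPs and 46 against 23 in B. The block called 0 of the members in these comparisons.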

Additional observations from a re-analysis of the deposited data

How the results depend on the processing

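Over 11 settings other than leaving out a library, counts of members called differed from 0 in 3 cases. With the replicate block, 1 member, Socs1, was called in DKO against WT B cells (-1.16, adjusted p = 0.00659 in edgeR, 550 genes called in all); WT numbers did not pair with the others there (mean correlation 0.0587). The block, which was by mouse in fits across populations, changed no other call of a member. DESeq2 with a normal prior called 2 in DKO against WT B cells. With the share of reads on no gene as covariate, 1 member, Stat5b, was called in DKO B against CLP libraries. Leaving out 1 library gave 0 to 1 called members in G1KO B against CLP, where Stat5a, from -0.84 to -0.30, was called without B G1KO replicate 1 (adjusted p = 0.0456), and 0 in the other comparisons. Some fold changes, none of them called, changed sign, with the cause not tested. In DKO against WT CLPs these were Jak3 without a filter (0.0084) and with the normal prior (0.0040), and Il2rg with the block (-0.063) and with ILC2 markers (-0.028). With the share on no gene as covariate, Il2rg was -0.27, Jak1 -0.20 and Stat5b -0.093. Without the knockout libraries numbered 1, which held the lowest Il7r, Il7r was 0.17 and Jak3 0.082. With myeloid markers Il7r was 0.68, Jak3 0.50 and Socs3 0.57. In DKO against WT B cells, Socs2 was 0.029 after thinning to the smallest library, 0.059 without the libraries numbered 1 and 0.11 with myeloid markers, and Il7r 0.068 with myeloid markers. Between populations, with the share on no gene, Jak3 was 0.0010 in WT, 0.40 in G1KO and 0.11 in G2KO, and Il2rg 0.49 and Stat5a 0.73 in G1KO. The populations did not overlap in that share, so neither these values nor the Stat5b call separate it from population. Leaving out 1 library turned the sign, in CLPs, of Il7r (-0.55 to 0.15), Il2rg (-0.23 to 0.30), Jak1 (-0.059 to 0.38), Jak3 (-0.15 to 0.28) and Socs2 (-0.16 to 0.83), and in B of Socs2 (-0.38 to 0.093) and Socs3 (-1.27 to 0.83). Genes called over all genes in DKO against WT B cells numbered 134 in edgeR, 444 in DESeq2 and 655 with the prior, and in CLPs 14, 169 and 146. Depth limits the low inhibitors: Cish and Socs3 had as few as 15 reads in a B library. The 4 settings with markers, without libraries numbered 1 or with the normal prior were chosen after the data were seen.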
